A study of Mus musculus with 416 samples.

Results

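The change in replication timing from the 4-cell to the 8-cell stage was described in mouse embryos injected with siRNA to Rif1 (siRif1). All 51 siRif1 4-cell and all 50 siRif1 8-cell blastomeres with a column in the tables of replication states were used. These were 101 of the 299 cells in all, and the 49 and 60 cells of the same stages from embryos with a control siRNA (siCont) served for comparison. Embryos of both treatments came from the cross (C57BL/6J x CBA) x DBA/2J. Their zygotes were injected with 20 µM of one of the siRNAs from 17 to 18 hours after hCG, the hormone that triggers ovulation, and were grown in KSOM medium to the stage of collection. Embryos were taken apart into single blastomeres at times spread over S phase, and the genome of each blastomere was amplified with its own barcode. No embryo, litter or batch is named for a cell, so cells of 1 embryo cannot be told from cells of several, and each group counted as 1 sample. RIF1 protein and Rif1 RNA were not analysed here, so the degree of depletion at each stage is not known here.

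DNA is replicated in a set order within S phase, with gene-rich active regions generally early and gene-poor regions of the nuclear periphery generally late. RIF1 is a large chromatin protein that brings protein phosphatase 1 (PP1) to replication origins, where PP1 counteracts the DDK kinase (CDC7 with its activator DBF4) that fires them. In many cell types loss of RIF1 is known to blur the separation of early and late regions. In mouse embryos the separation is known to be weak after fertilisation and to sharpen over the cleavage divisions.

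For each bin of 50 kb the replicated share is the percentage of cells, among those measured, that had replicated it. Groups differed in their mean position in S phase, so shares were centred on the mean of their group, and the change is the centred 8-cell share minus the centred 4-cell share in percentage points. A positive change is called earlier and a negative one later, always relative to the rest of the genome. With 1 sample a group there is no test, and no p-value or standard error is given. Intervals are exact 95% Clopper-Pearson intervals on shares of cells and cover counting error only. The SD over the 19 autosomes is given as a measure of spread within the same cells, which is not a spread between embryos.

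Sequence at both ends of the range of change is shown by the stretch upstream of 1 gene each, with CG dinucleotides in capitals. Sema3d, which encodes a secreted guidance protein, was the only protein-coding gene of a window that was earlier at the 8-cell stage. Rps10, which encodes a protein of the small ribosomal subunit, lay in a gene-dense window that was later. The 250 bases before each RefSeq transcript start (GRCm38.p6) were as follows, Sema3d on the plus strand at chr5:12382916-12383165 and Rps10 on the minus strand at chr17:27635245-27635494.
Sema3d: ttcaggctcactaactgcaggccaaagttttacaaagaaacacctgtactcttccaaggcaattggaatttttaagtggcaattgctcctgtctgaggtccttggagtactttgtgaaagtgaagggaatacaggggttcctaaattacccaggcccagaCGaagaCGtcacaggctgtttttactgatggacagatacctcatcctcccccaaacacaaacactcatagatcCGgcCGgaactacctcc
Rps10: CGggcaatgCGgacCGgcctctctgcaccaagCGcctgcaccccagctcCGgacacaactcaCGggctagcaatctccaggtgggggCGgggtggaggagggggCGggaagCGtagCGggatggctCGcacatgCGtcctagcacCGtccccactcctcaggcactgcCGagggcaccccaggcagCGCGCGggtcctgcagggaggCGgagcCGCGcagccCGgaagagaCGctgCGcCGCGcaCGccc
The Sema3d stretch held 4 CG dinucleotides and 46.8% G and C, and the Rps10 stretch 26 and 72.8%. A CG dinucleotide was present in 93.6% of the 15593 upstream stretches that matched a measured gene, of 19551 measured genes. When these genes were put in 5 equal classes by their siRif1 change, mean GC content ran from 57.3% in the class with the lowest changes to 54.8% in the class with the highest. By siCont change it ran the other way, from 51.1% to 57.6%. GC content was thus slightly higher among relatively later genes in siRif1 and clearly lower among them in siCont.

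Measured states covered 88.9 to 94.0% of the 49264 autosomal bins in siRif1 cells of both stages, and 46205 bins had at least 10 cells in each. The siRif1 4-cell blastomeres ranged from 6.93 to 95.1% replicated with a median of 51.1%, and the 8-cell blastomeres from 11.9 to 66.3% with a median of 43.2%. In siCont the medians were 42.8 and 48.3%. No siRif1 8-cell blastomere was above 66.3% replicated, and results were also computed on 38 siRif1 and 39 siCont pairs of cells of the 2 stages matched within 5 points of percent replicated. The value 1 was read as replicated because it was more frequent in bins that held a gene midpoint than in other bins, 54.3 against 48.5% in siRif1 4-cell and 46.9 against 41.1% in 8-cell blastomeres. The least different 2 cells differed at 9.32% of bins within the 4-cell group, 13.5% within the 8-cell group and 15.99% across them. The shortest run of 1 state away from a chromosome end was 5 bins (250 kb), so neighbouring bins are not separate measurements.

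The sharpening of the profile seen between these stages in control embryos had no counterpart of like size in siRif1 embryos. Over bins, the replicated share had an SD of 14.2 points in 4-cell and 14.8 points in 8-cell siRif1 blastomeres, and the 8-cell value was the larger on 15 of 19 autosomes. In siCont the SD went from 13.8 to 19.9 points and was larger at the 8-cell stage on 19 of 19 autosomes. In cells matched in S phase the siRif1 SD went the other way, from 15.9 to 14.6 points, and was larger at the 8-cell stage on 2 of 19 autosomes. Counting error taken as binomial had an SD of 6.79 points at the 4-cell and 6.76 points at the 8-cell stage in siRif1, both upper figures. The profiles of the 2 stages correlated across bins at r = 0.778 (rho = 0.774) in siRif1 and r = 0.802 (rho = 0.813) in siCont. Bins share cells and neighbouring states, so these correlations describe profiles only.

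Single bins moved in siRif1 by little more than counting error taken as binomial, which is an upper figure. It ignores that cells differed in percent replicated (SD 19.2 points in siRif1 4-cell and 14.6 in siRif1 8-cell blastomeres). Centring takes out the part of the error that this spread shares over all bins. The remainders below are thus lower figures, and the shares given for counting error are upper ones. The SD of the change over bins was 9.69 points, and counting error alone would give 9.58 points, which leaves 1.49 points after the variances are subtracted. In siCont the values were 12.1, 9.14 and 7.89 points. In matched cells the remainder was 2.68 points in siRif1 and 5.01 points in siCont. Bins earlier by 20 points or more made up 2.34% of bins in siRif1 (1079 bins) and bins later by as much 1.7% (787 bins), where counting error alone would give 1.87% in each direction. In siCont 3.22% of bins were earlier and 6.12% later by that size, against 1.47% from counting error. At 30 points, 62 siRif1 bins (0.134%) were earlier and 23 (0.0498%) later. In matched cells the siRif1 shares were 4.01 and 4.24%, with fewer cells and 3.49% from counting error.

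Early and late regions were set apart with classes taken from siCont morula blastomeres, which entered neither change. Of 5 equal classes, the earliest had mean shares of 64.9% in siRif1 4-cell, 55.4% in siRif1 8-cell and 69.5% in siRif1 morula blastomeres. The latest class had 37.0, 27.3 and 27.6%. The matching siCont shares were 62.3, 71.8 and 81.4% in the earliest and 33.6, 22.4 and 11.5% in the latest class. The 4-cell blastomeres of both treatments began from nearly the same distance between the outer classes, 27.9 points in siRif1 and 28.7 in siCont. At the 8-cell stage that distance was 28.1 points in siRif1 and 49.4 points in siCont.

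The distance therefore changed by 0.246 points in siRif1 (SD over autosomes 3.60), being wider on 10 autosomes and narrower on 9. It changed by 20.7 points in siCont (SD over autosomes 2.13) and was wider on 19. The siRif1 change minus the siCont change was -20.5 points (SD over autosomes 3.39) and was negative on 19 of 19 autosomes, from -26.4 to -14.03 points. In cells matched in S phase the siRif1 distance was narrower at the 8-cell stage, with a change of -6.77 points that was negative on 18 autosomes, whereas the siCont change was 18.4 points.

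In siRif1 the middle of the timing range was relatively earlier at the 8-cell stage and both ends relatively later. The middle class changed by 2.52 points and was earlier on 17 of 19 autosomes, and the next earlier class changed by 1.63 points. The latest class changed by -2.34 points and the earliest by -2.09 points, each positive on 3 autosomes only. In siCont the changes ran in order from -13.8 points in the latest class through -4.83, 4.08 and 7.66 to 6.92 points in the earliest. The earliest class thus changed in opposite directions, and this difference was not tested. In matched siRif1 cells the earliest class changed by -5.88 points and the latest by 0.896 points, so the sign of the latest class rested on which cells were used.

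**Figure D1:**
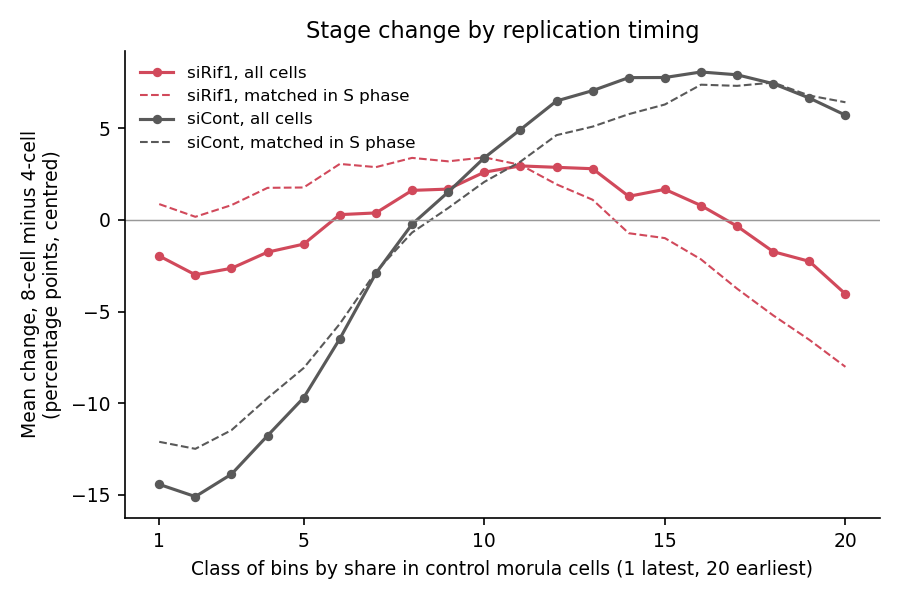
Mean change from the 4-cell to the 8-cell stage in percentage points (vertical axis) in 20 equal classes of bins ranked by the share of siCont morula cells (horizontal axis, 1 latest), for all cells (solid lines) and cells matched in percent replicated (dashed lines). The siCont line runs from -14.4 points in class 1 to 8.07 in class 16 and 5.71 in class 20, while the siRif1 line stays between -4.04 and 2.94 points for all cells and between -8.01 and 3.41 points for matched cells.

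On the finer scale of 20 classes the siRif1 change was highest in class 11, at 2.94 points, and lowest in class 20, the earliest of all, at -4.04 points, or -8.01 points in matched cells. The siCont change of that class was 5.71 points. In siRif1 the earliest DNA of this scale thus had the most negative change, and in siCont a positive one.

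Individual blastomeres of the 2 siRif1 stages were spread over nearly the same range. Within each cell the percent of the latest class replicated was subtracted from that of the earliest, a value that is high where early and late DNA are well separated. Among 47 siRif1 4-cell blastomeres between 20 and 80% replicated it ranged from -28.9 to 89.2 points with a median of 23.9 points. Among 47 siRif1 8-cell blastomeres it ranged from -31.1 to 87.4 with a median of 31.1 points. The groups overlapped almost wholly. The medians differed by 7.22 points while the means, 28.1 and 28.7 points, were nearly alike. In siCont the median was 30.7 points in 38 4-cell and 53.4 points in 54 8-cell blastomeres.

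A value below 0 means that a cell had replicated more of the late class than of the early class. It occurred in 7 of 47 siRif1 4-cell blastomeres (14.9%) and in 12 of 47 siRif1 8-cell blastomeres (25.5%). In siCont such cells were 7 of 38 (18.4%) and 3 of 54 (5.56%). All 12 siRif1 8-cell blastomeres below 0 had label numbers from 041 to 064. In siCont 4-cell blastomeres all such cells but number 048 had numbers from 001 to 010. The numbers ran from 006 to 064 in siRif1 4-cell and from 003 to 062 in siCont 8-cell blastomeres. The labels do not say what the numbers stand for. A trait of all cells of a group thus cannot be told from one of a few embryos. Of the 12 siRif1 8-cell blastomeres, 7 were among the 17 cells between 20 and 40% replicated, where the median was 17.2 points. The median was 32.3 points in the 21 cells from 40 to 60% and 34.3 points in the 9 cells from 60 to 80%. At the 4-cell stage the order was the reverse, with medians of 47.6, 26.4 and 12.3 points in 12, 24 and 11 siRif1 cells of these ranges. Cells below 0 were also frequent among siCont 4-cell blastomeres between 20 and 40% replicated, at 6 of 14 with a median of 20.7 points. Among siCont 8-cell blastomeres of that range they were 1 of 17, with a median of 43.3 points.

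**Figure D2:**
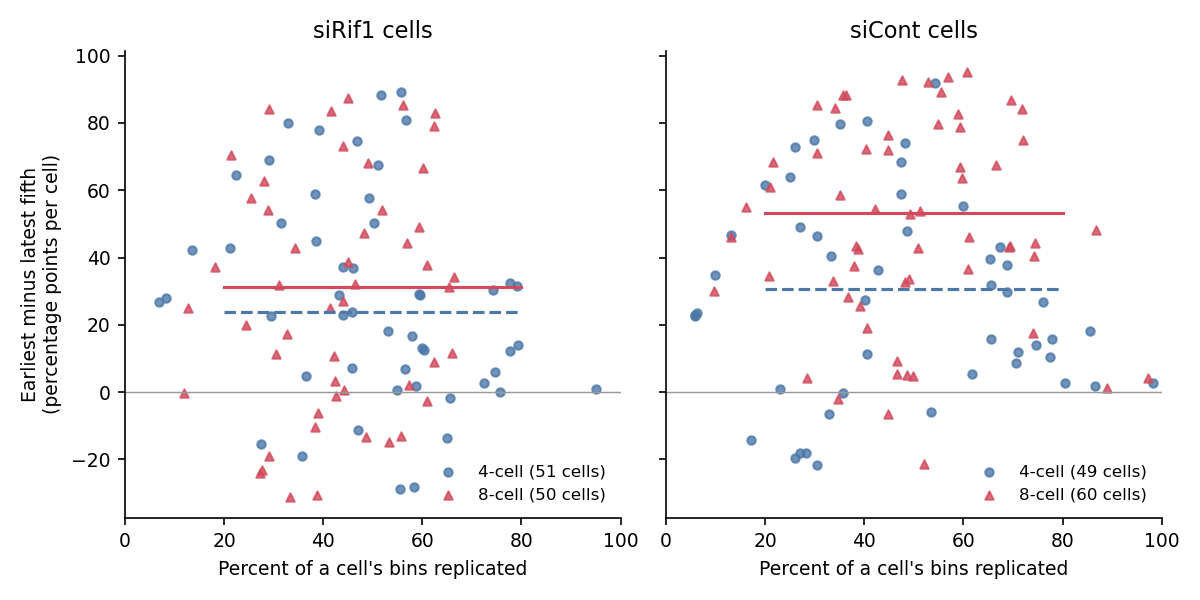
Earliest minus latest class in each blastomere, in percentage points (vertical axis), against the percent of its bins replicated (horizontal axis), for siRif1 and siCont cells of the 4-cell (circles) and 8-cell stage (triangles). Lines mark the medians of cells between 20 and 80% replicated, 23.9 and 31.1 points in siRif1 and 30.7 and 53.4 points in siCont.

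Cells of 1 group were also compared with each other. The median correlation of states between cells within 5 points of percent replicated was 0.0611 over 185 pairs of siRif1 4-cell and 0.0657 over 223 pairs of siRif1 8-cell blastomeres. In siCont it was 0.0553 over 108 pairs and 0.139 over 265 pairs. Pairs below 0 were 14.1 and 21.1% in siRif1 and 28.7 and 9.81% in siCont. Switches between replicated and unreplicated DNA had a median of 23.3 per 1000 neighbouring measured bins in siRif1 4-cell and 23.2 in siRif1 8-cell blastomeres. The siRif1 8-cell blastomeres were therefore no more alike than those of the stage before, by these measures. A pair shares its cells with other pairs, so the numbers of pairs are not numbers of replicates.

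Which part of the control stage change still occurred with the Rif1 siRNA was asked bin by bin, since the 2 changes share no cells. Across bins the siRif1 change correlated with the siCont change at r = 0.180 (rho = 0.180), and at r = 0.150 within strata of like timing. The sign was the same in 55.2% of bins. In cells matched in S phase r was -0.0521 and the sign was the same in 47.7% of bins, and within strata of like timing r was 0.0479.

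The 4615 bins with the lowest siCont change were gene-poor DNA, with a mean of 1.77 protein-coding genes per Mb, that became late in control 8-cell embryos. They changed by -22.2 points in siCont and by -4.56 points in siRif1, or -0.838 points in matched cells. Their siRif1 share was 40.8% at the 4-cell, 28.8% at the 8-cell and 31.3% at the morula stage. The 4614 bins with the highest siCont change, with 11.03 genes per Mb, changed by 19.1 points in siCont and by 2.35 points in siRif1, or 0.475 in matched cells. Relative to the same 4-cell blastomeres these sets of bins reached -8.95 and 5.98 points in siRif1 morula blastomeres. At the morula stage the bins thus lay further in the control direction than at the 8-cell stage. Choosing bins by the change in 1 treatment favours a smaller change in the other, here and for the bins described next.

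Seen from the siRif1 side, the tenth of bins with the lowest siRif1 change (-16.9 points) changed by -2.27 points in siCont, and the tenth with the highest (17.1 points) by 4.804 points. Of 1078 siRif1 bins earlier by 20 points or more, 78 were also earlier by that size in siCont, 7.24% of the siRif1 and 5.25% of the 1485 siCont bins. Of 785 later siRif1 bins 96 were shared, 12.2% of the siRif1 and 3.39% of the 2828 siCont bins. Over all bins used in both, 2.34 and 1.70% were earlier and later in siRif1 and 3.22 and 6.13% in siCont.

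Changes were also averaged over windows of 1 Mb with up to 20 bins, which is shorter than the median run of 1 state in siRif1 4-cell and 8-cell blastomeres (25 bins), so the bins of a window are not separate measurements. Of 2324 windows, 15 (0.645%) were earlier and 11 (0.473%) later by 20 points or more in siRif1. In siCont 31 (1.33%) were earlier and 106 (4.56%) later. The siCont change was positive in 8 of the 11 later siRif1 windows and in 12 of the 15 earlier ones. The share of all windows with a positive siCont change was not computed, so these counts cannot be read against it. Of the 11 later windows 10 had a higher share in siRif1 morula than in siRif1 8-cell blastomeres, and of the 15 earlier windows 12 had a lower one. The windows were chosen by their 8-cell values, so that return is a description of chosen extremes. These shares are not centred, and mean percent replicated rose from 42.9% in siRif1 8-cell to 49.8% in siRif1 morula blastomeres.

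The 5 windows with the lowest change overlapped 18 to 50 protein-coding genes each, and 5 of the 11 later windows lay side by side or nearly so on chromosome 17. The lowest was chromosome 17 from 27 to 28 Mb, with Anks1, the metabotropic glutamate receptor gene Grm4 and Ilrun. It was replicated over most of its bins in 26 of 50 siRif1 4-cell blastomeres (52%, interval 37.4 to 66.3%), 12 of 50 siRif1 8-cell blastomeres (24%, 13.1 to 38.2%) and 23 of 45 siRif1 morula blastomeres. In siCont it was replicated in 20 of 49, 37 of 60 and 32 of 44 blastomeres. The centred changes were -24.5 points in siRif1 and 14.2 points in siCont.

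The window from 25 to 26 Mb, with the lipase maturation factor gene Lmf1, the ciliary transport gene Ift140 and Rab11fip3, was replicated in 26 of 50, 9 of 50 and 24 of 45 siRif1 blastomeres of the 3 stages. Its siCont counts were 23 of 49, 39 of 60 and 34 of 44. The changes were -24.3 and 16.5 points. From 24 to 25 Mb, with the lipid transporter genes Abca17 and Abca3 and the kinase gene Pdpk1, the siRif1 counts were 29 of 50, 13 of 50 and 29 of 45, with changes of -24.3 points in siRif1 and 8.24 points in siCont. From 23 to 24 Mb only 10 bins were used. That window, with the splicing factor gene Srrm2, Zfp13 and Bicdl2, was replicated in 26 of 50 siRif1 4-cell and 12 of 50 8-cell blastomeres, a change of -21.98 points.

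These windows belonged to a domain from 23 to 29 Mb of chromosome 17 that was later at the 8-cell stage in siRif1 and earlier in siCont. In siRif1 its 6 windows had mean replicated shares of 51.4 to 63% at the 4-cell, 22 to 34.8% at the 8-cell and 50.2 to 70.9% at the morula stage. In siCont the ranges were 45.5 to 62.1%, 56.3 to 74.7% and 60.5 to 81.0%. The 8-cell shares of the 6 windows did not overlap with those of either other stage in siRif1. The domain was picked for its low siRif1 change, so this separation follows in part from the choice. The shares are not centred, and mean percent replicated was 50.2, 42.9 and 49.8% in siRif1 4-cell, 8-cell and morula blastomeres. The next window, from 29 to 30 Mb, changed by -6.18 points in siRif1 and the one before, from 22 to 23 Mb, by -5.46 points. The windows share the same cells and long runs of 1 state, so they are 1 event and not 6.

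**Figure D3:**
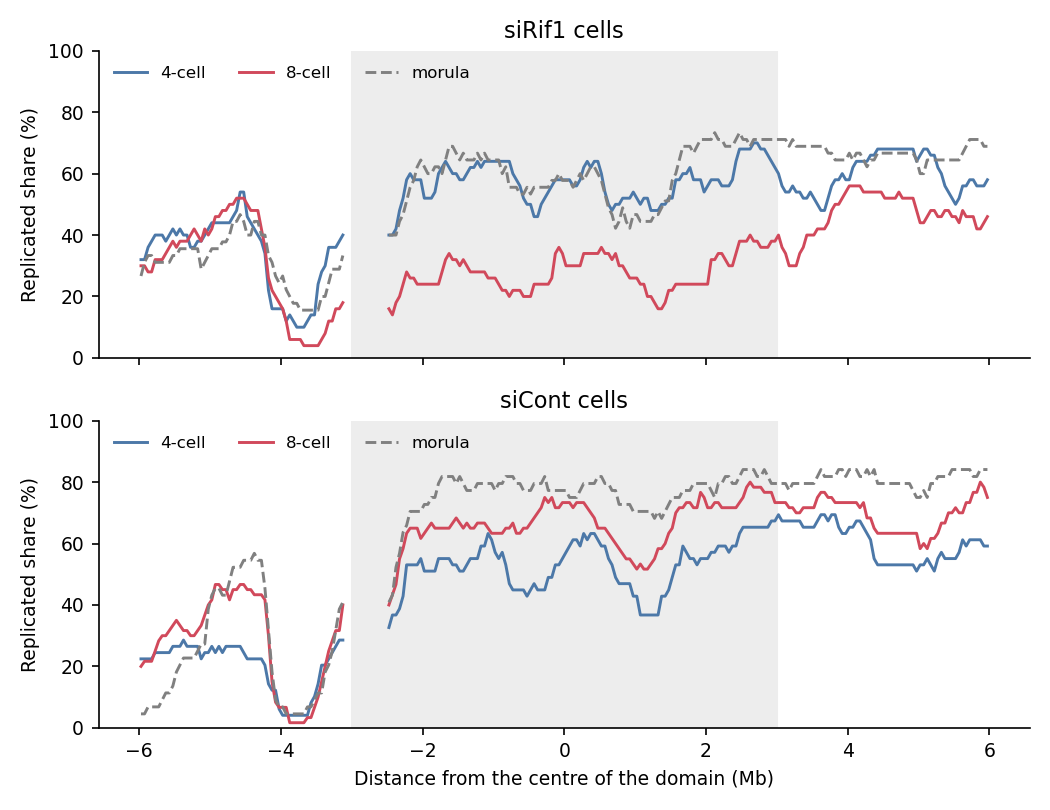
Replicated share in percent of 50-kb bins (vertical axis) against distance in Mb from the centre of the chromosome 17 domain (horizontal axis), at the 4-cell, 8-cell and morula stages in siRif1 (top) and siCont cells (bottom). The domain is shaded, gaps are bins with under 10 cells, and in it the siRif1 8-cell line lies below both other stages while the siCont 8-cell line lies above the 4-cell line.

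The remaining window of the 5 lowest was chromosome 2 from 26 to 27 Mb, with Nacc2, Ccdc187 and Notch1, the receptor gene of a signalling pathway used throughout development. It was replicated in 33 of 51 siRif1 4-cell (64.7%, 50.1 to 77.6%), 14 of 50 siRif1 8-cell (28%, 16.2 to 42.5%) and 27 of 45 siRif1 morula blastomeres. The siCont counts were 28 of 49, 41 of 60 and 37 of 44. The change was -21.8 points in siRif1 and 12.8 points in siCont. In the 5 lowest windows the intervals of the 2 siRif1 stages overlapped slightly for the Anks1 and Srrm2 windows and not for the others. The windows were chosen by this same change, so gaps between intervals follow in part from the choice. The intervals are also on shares that are not centred, and the mean percent replicated of siRif1 cells fell from 50.2 to 42.9% between the stages.

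The 5 windows with the highest change overlapped 1 to 9 protein-coding genes each. The highest, chromosome 1 from 139 to 140 Mb with the Rab exchange factor gene Dennd1b, the retinal polarity gene Crb1 and Gm4788, changed by 25.4 points in siRif1 and 14.5 points in siCont. It was replicated in 21 of 51 siRif1 4-cell and 28 of 50 siRif1 8-cell blastomeres, over 12 used bins. Chromosome 2 from 13 to 14 Mb, with the vitamin B12 uptake receptor gene Cubn, Rsu1 and the sialyltransferase gene St8sia6, went from 28 of 51 (54.9%, 40.3 to 68.9%) to 39 of 50 siRif1 blastomeres (78%, 64.04 to 88.5%). Its changes were 24.1 points in siRif1 and -8.19 points in siCont.

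The Sema3d window, chromosome 5 from 12 to 13 Mb, was replicated in 18 of 51 siRif1 4-cell (35.3%, 22.4 to 49.9%), 30 of 50 siRif1 8-cell (60%, 45.2 to 73.6%) and 14 of 45 siRif1 morula blastomeres. Its siCont counts were 17 of 49, 22 of 60 and 11 of 44, and the changes were 22.5 and -6.30 points. Chromosome 18 from 30 to 31 Mb, with Rit2 and the lipid kinase gene Pik3c3, went from 23 of 51 to 33 of 50 siRif1 blastomeres and changed by 23.6 points. Chromosome 7 from 129 to 130 Mb, with the lipid phosphatase gene Plpp4 and Wdr11, went from 22 of 51 to 32 of 50 and changed by 22.1 points. The siCont changes of these were 6.12 and 1.51 points. In all 5 highest windows the intervals of the 2 siRif1 stages overlapped. Without centring, the lower mean of the 8-cell group narrows the gap in these windows and widens it in the lowest ones, so the 2 sets cannot be compared by overlap.

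**Figure D4:**
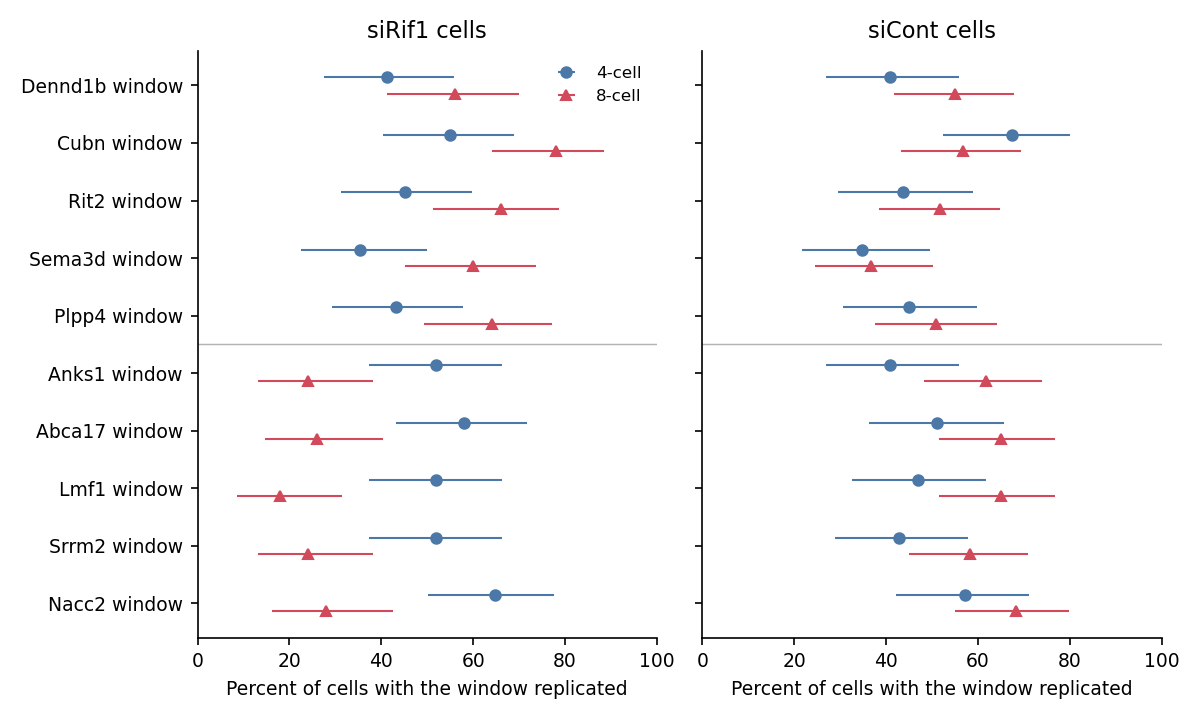
Percent of cells with most of a 1-Mb window replicated (horizontal axis) at the 4-cell (circles) and 8-cell stage (triangles), with exact 95% intervals, in siRif1 and siCont cells. Above the line are the 5 windows with the highest and below it the 5 with the lowest siRif1 change, and in the lower 5 the siRif1 8-cell points lie at 18 to 28%, whereas the siCont 8-cell points lie above their 4-cell points.

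The 4 windows with the highest control changes changed less in siRif1. They were chosen by the siCont change, and that choice by itself favours a smaller change in siRif1. Chromosome 7 from 99 to 100 Mb, with the autophagy gene Uvrag, Gdpd5 and the arrestin gene Arrb1, went from 14 of 49 to 40 of 59 siCont blastomeres and from 24 of 51 to 22 of 50 siRif1 blastomeres. Its changes were 33.04 points in siCont and 1.36 points in siRif1. Chromosome 13 from 112 to 113 Mb, with Ankrd55, the lysosomal amino acid transporter gene Slc38a9 and Plpp1, changed by 26.8 and -2.57 points. Chromosome 13 from 53 to 54 Mb, with the WNT5A receptor gene Ror2, Sptlc1 and the homeobox gene Msx2, changed by 26.4 and -1.38 points. The fourth, chromosome 17 from 64 to 65 Mb with the tyrosine kinase gene Fer, Man2a1 and Pja2, changed by 26.7 points in siCont and 13.7 points in siRif1. In all 4 windows the share of cells with the window replicated was higher in siRif1 than in siCont 4-cell blastomeres. The choice favours windows with a low siCont 4-cell share, so this is not a separate result.

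The 4 windows with the lowest siCont change, chosen in the same way, changed by little in siRif1. Chromosome 12 from 63 to 64 Mb, without any protein-coding gene, went from 19 of 49 to 5 of 60 siCont blastomeres and from 14 of 51 to 8 of 50 siRif1 blastomeres, with changes of -32.2 and -3.39 points. Chromosome 5 from 60 to 61 Mb changed by -31.1 points in siCont and -2.28 in siRif1, and chromosome 9 from 93 to 94 Mb by -30.8 and 0.725 points. Chromosome 1 from 50 to 51 Mb, with Tmeff2, changed by -30.0 and -2.10 points. In siRif1 morula blastomeres the Tmeff2 window was replicated in 15 of 45 cells and the chromosome 9 window in 7 of 45, and in siCont morula blastomeres in 3 of 44 and 5 of 44.

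Some windows did change in the control direction with the Rif1 siRNA, and how many of all windows did so was not counted. The 4 in each direction whose smaller change was the largest were picked after the values were seen, so they are given as examples. Chromosome 8 from 124 to 125 Mb, with the glycosyltransferase gene Galnt2, Pgbd5 and Ttc13, changed by 18.4 points in siRif1 and 19.8 points in siCont. Chromosome 18 from 8 to 9 Mb went from 17 of 51 to 27 of 50 siRif1 and from 19 of 48 to 40 of 60 siCont blastomeres, changes of 21.2 and 22.02 points. Chromosome 14 from 14 to 15 Mb, with Nek10, Atxn7 and the bicarbonate transporter gene Slc4a7, changed by 18.4 and 24.1 points, and chromosome 2 from 146 to 147 Mb, with Cfap61, Ralgapa2 and Kiz, by 18.6 and 21.3 points.

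The 4 windows described next were later in both treatments and overlap at most 1 protein-coding gene each. Chromosome 1 from 68 to 69 Mb, within the receptor kinase gene Erbb4, went from 24 of 51 to 11 of 50 siRif1 and from 15 of 49 to 7 of 60 siCont blastomeres, changes of -19.98 and -22.5 points. Chromosome 1 from 124 to 125 Mb, with the potassium channel partner gene Dpp10, went from 27 of 51 to 10 of 50 siRif1 and from 24 of 49 to 17 of 60 siCont blastomeres, changes of -19.2 and -18.2 points. Chromosome 5 from 46 to 47 Mb and chromosome 11 from 39 to 40 Mb, which lack protein-coding genes, changed by -18.8 and -18.6 points in siRif1 and by -24.4 and -21.7 points in siCont. In matched siRif1 cells these 4 windows changed by -10.8 to -17.0 points.

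Other windows changed in opposite directions in the treatments. Apart from the chromosome 17 and Notch1 windows, chromosome 14 from 23 to 24 Mb, with Lrmda and the potassium channel gene Kcnma1, went from 35 of 51 to 23 of 50 siRif1 and from 17 of 49 to 42 of 60 siCont blastomeres. The changes were -10.3 and 24.7 points. In the other direction lay chromosome 12 from 42 to 43 Mb, with changes of 13.96 points in siRif1 and -24.1 in siCont, and chromosome 12 from 62 to 63 Mb, with 7.20 and -27.2 points. Both overlap no protein-coding gene. Chromosome 7 from 10 to 11 Mb, with the oocyte and embryo gene Nlrp4b and vomeronasal receptor genes, changed by 18.4 and -18.0 points over 13 bins, and chromosome 15 from 50 to 51 Mb, with the transcription factor gene Trps1, by 10.8 and -22.2 points.

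Gene density gave the same arch as timing. The gene-poorest of 5 classes of bins, with a mean of 0.416 genes per Mb, changed by -2.73 points in siRif1 and -12.1 points in siCont. The middle class, with 5.24 genes per Mb, changed by 2.31 and 3.77 points, and the gene-densest class, with 24.4 genes per Mb, by -2.03 and 5.20 points. In siRif1 the densest class was positive on 5 of 19 autosomes and in siCont on 19. In matched siRif1 cells the poorest class changed by 0.313 and the densest by -5.16 points. By chromosome the siRif1 change was lowest on gene-dense chromosome 11, at -5.45 points with 1.44 points in siCont, and highest on chromosome 6, at 2.97 points with -1.59 points in siCont. Gene density did not order the chromosomes in siRif1. Chromosome 7, the densest at 14.1 genes per Mb, changed by 1.06 points, and chromosome 14, at 6.17 genes per Mb, was next lowest at -3.59 points. Chromosomes 13 and 19, highest in siCont at 6.95 and 6.16 points, changed by 2.18 and 1.03 points in siRif1. Along the chromosomes the fifth nearest the centromere changed by 2.03 points in siRif1 and 1.70 points in siCont, being positive on 14 and 12 autosomes.

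Among genes, each placed in the bin of its midpoint, 48.3% of 19551 had a positive siRif1 change, with a median of -1.12 points (-2.64 in matched cells), and 71.5% had a positive siCont change, with a median of 5.07 points. Genes earlier by 20 points or more were 2.13% and genes later by as much 2.43% in siRif1. Lists of functional groups were read against these values and not tested. Across 12 lists with at least 80% of their members measured, 41 members were past 20 points, many of them in shared bins. A list of 2-cell stage and genome activation genes, with 8 of 20 members measured, was not interpreted.

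**Figure D5:**
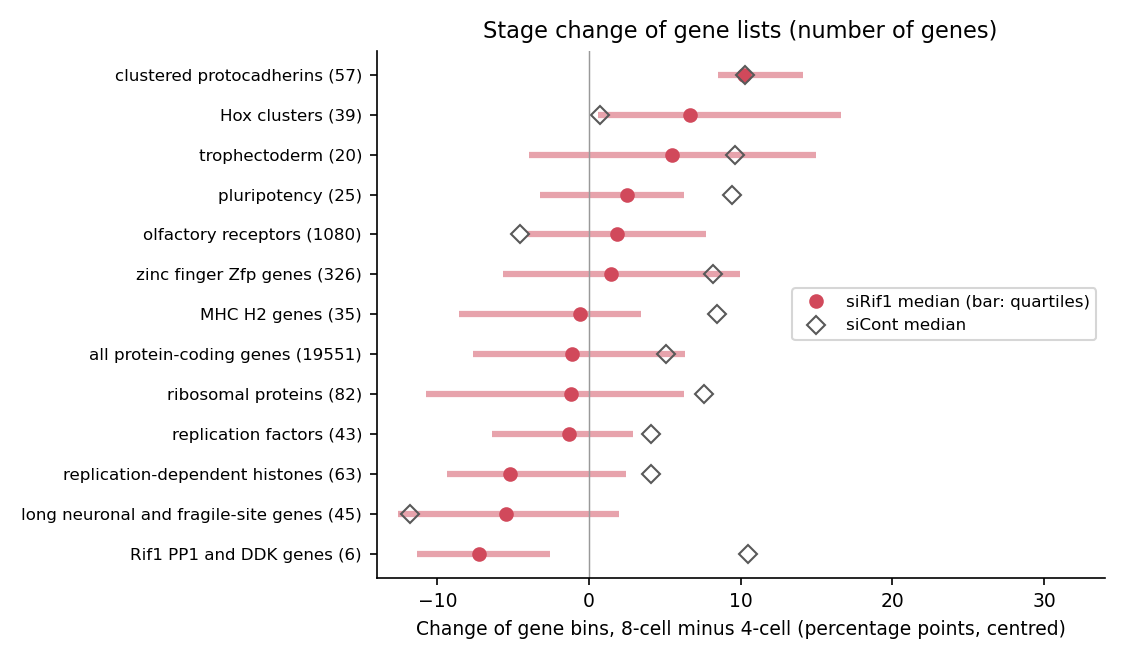
Median change of the bins of each gene list (horizontal axis, percentage points, 8-cell minus 4-cell) in siRif1 (filled circles, bars from lower to upper quartile) and siCont (open diamonds), with the number of genes measured in brackets. The siRif1 medians lie from -7.26 to 10.2 points and the siCont medians from -11.8 to 10.5 points, and siCont lies to the right in all lists but the Hox, olfactory receptor and long neuronal ones.

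Of 6 genes of the RIF1 pathway, 5 had negative changes in siRif1 and 6 had positive ones in siCont. Over all genes 48.3% were positive in siRif1 and 71.5% in siCont. Rif1 was replicated in 36 of 51 siRif1 4-cell and 28 of 50 siRif1 8-cell blastomeres (70.6 and 56%), a change of -7.16 points against 8.91 points in siCont. The PP1 catalytic subunit genes Ppp1ca, Ppp1cb and Ppp1cc changed by -12.6, -13.2 and -7.36 points in siRif1 and by 0.376, 5.21 and 12.04 points in siCont. Of the DDK genes, Cdc7 changed by -1.08 points and 13.2 points, and Dbf4 by 22.1 and 12.7 points. Dbf4 was replicated in 17 of 51 siRif1 4-cell blastomeres (33.3%, 20.8 to 47.9%) and 24 of 50 8-cell blastomeres (48%, 33.7 to 62.6%). These are the timings of the loci and say nothing of the RNA of the genes.

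Genes of the replication machinery had a median of -1.32 points in siRif1, close to that of all genes, with 18 of 43 positive, and of 4.08 points in siCont. The 2 with the largest changes went opposite ways. Mcm3, a subunit of the replicative helicase, was replicated in 22 of 51 siRif1 4-cell (43.1%, 29.3 to 57.8%) and 31 of 50 8-cell blastomeres (62%, 47.2 to 75.3%), a change of 26.3 points. Pola2, a subunit of the primase-polymerase complex, went from 31 of 51 (60.8%, 46.1 to 74.2%) to 16 of 49 (32.7%, 19.9 to 47.5%), a change of -20.7 points. In siCont they changed by 9.29 and 6.12 points.

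Ribosomal protein genes, spread over 80 bins, had a median of -1.16 points in siRif1 (-5.27 in matched cells) with 38 of 82 positive, against 7.59 points in siCont with 72 positive. Their 4 members later by 20 points or more were Rps2, Rpl3l, Rps10 and Fau, and the first 3 lay in the chromosome 17 domain. Rps10 was replicated in 29 of 50 siRif1 4-cell (58%, 43.2 to 71.8%) and 12 of 50 8-cell blastomeres (24%, 13.1 to 38.2%), a change of -26.6 points against 15.95 points in siCont. Rpl3l went from 31 of 50 to 14 of 50, likewise -26.6 points, and shared its change with Rps2 and Zfp598 nearby.

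The lists of the first cell lineages had medians above that of all genes and members on both sides of 0. The pluripotency list had 15 of 25 members positive in siRif1 (median 2.48 points, -0.00780 in matched cells) and 23 positive in siCont (median 9.46 points). Pou5f1, the gene of the factor OCT4, went from 25 of 50 to 18 of 50 siRif1 blastomeres, a change of -6.58 points. Nanog and Sox2, of the same network, changed by 6.68 and 0.641 points. The largest changes in the list were -17.7 points at Pecam1, an adhesion molecule gene, and 14.4 points at the transcription factor gene Tfcp2l1.

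The trophectoderm list, of genes of the outer lineage that forms the placenta, had 13 of 20 positive in siRif1 (median 5.50 points, 2.62 in matched cells) and 18 in siCont (median 9.65 points). Cdx2, a regulator of that lineage, went from 36 of 51 to 26 of 50 siRif1 blastomeres, a change of -11.2 points, whereas Gata3 changed by 0.837 and Eomes by -5.52 points. Tead1, a transcription factor gene of the Hippo pathway, changed by 20.4 points, from 25 of 51 to 31 of 50 blastomeres, and the keratin gene Krt18 by 18.2 points. The siCont changes of these 5 were 7.25, 15.6, 7.99, 3.96 and 12.6 points.

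Members of clustered gene families share bins, so a count of genes is not a count of separate measurements. The clustered protocadherins, adhesion proteins that label neurons, were positive in 57 of 57 cases with a median of 10.2 points in siRif1 and 10.3 points in siCont, but they lay in only 11 bins of 1 locus. In matched siRif1 cells 36 of 57 were positive, with a median of 7.89 points. Most of the others, such as Pcdhga1, were at -0.00780 points, which is an equal share at both stages before centring. Pcdhb1 changed by 18.0 points in siRif1 and 0.682 in siCont, and Pcdhac2 by 16.1 and 1.93 points. The Hox genes, which pattern the body axis, were positive in 32 of 39 cases with a median of 6.68 points over 13 bins, which was -0.00780 points in matched cells. Hoxa13 went from 30 of 51 to 35 of 50 siRif1 blastomeres, a change of 18.6 points against 4.83 points in siCont.

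The replication-dependent histone genes had a median of -5.20 points in siRif1 (-2.64 in matched cells) over 13 bins with 31 of 63 positive, and of 4.08 points in siCont. H2ac13 and H2ac11, both on chromosome 13, changed by -11.3 and -9.63 points, against 14.1 and 12.5 points in siCont. Genes with symbols beginning with H2-, in the region of the major histocompatibility complex on chromosome 17, lay in 28 bins. Their median was -0.575 points (-3.42 in matched cells) with 12 of 35 positive in siRif1, whereas 35 of 35 were positive in siCont (median 8.44 points). H2-M10.6 changed by 11.4 and H2-D1 by -10.6 points in siRif1.

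Olfactory receptor genes, mostly late DNA, were positive in 606 of 1080 cases in siRif1 (median 1.86 points) and in 403 in siCont (median -4.52 points). The 2 with the largest changes were Olfr368, from 17 of 51 to 30 of 50 siRif1 blastomeres (34.1 points, against -2.92 in siCont), and Olfr38, from 16 of 51 to 25 of 50 (26.1 points, against 5.07). Zinc finger genes of the Zfp series were positive in 185 of 326 cases with a median of 1.42 points, which was -2.64 points in matched cells, against 8.18 points in siCont. Zfp263 stood out in both treatments. Its bin was replicated in 37 of 51 and 16 of 50 siRif1 blastomeres (-33.1 points) and in 36 of 49 and 22 of 60 siCont blastomeres (-39.5 points). Its siRif1 morula share was 75.6%. Zfp598, in the chromosome 17 domain, changed by -26.6 points in siRif1 and 7.25 points in siCont.

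Long neuronal and fragile-site genes were mostly later in both treatments. They were positive in 14 of 45 cases in siRif1, with a median of -5.48 points, and in 5 in siCont, with a median of -11.8 points. In matched siRif1 cells their median was -2.64 points, the same as that of all genes. Pcdh15, a protocadherin gene of inner-ear hair cells, went from 29 of 51 (56.9%, 42.2 to 70.7%) to 13 of 49 siRif1 blastomeres (26.5%, 14.9 to 41.1%), a change of -22.9 points against -11.8 in siCont. Immp2l, a mitochondrial peptidase gene, went the other way, from 26 of 51 to 32 of 50 blastomeres, with changes of 20.4 points in siRif1 and -4.59 points in siCont. How many of these differences between treatments would recur in other embryos cannot be told from 1 sample a group.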

How the data were processed

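Replication states of single mouse blastomeres were measured by whole-genome amplification and sequencing, per the labels' protocols. The 6 tables the authors deposited, 1 per group, hold other values than counts: a state of 0, 1 or NA per cell and 50-kb bin. The submitters' processing notes name the build GRCm38 and, among other tools, R 4.2.3 and the aligner Bowtie2 2.5.1. How reads became states, which of the 416 labelled cells were kept and the depth per cell are not given in the sources used here, so the precision is that of the number of cells. Chromosomes 1 to 19 were used, and the X chromosome was not analysed here.

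Shares, centring and changes were computed as defined above with Python 3.11.15, numpy 2.4.6, pandas 2.3.3 and scipy 1.17.1, over bins with at least 10 measured cells in both groups, and the code was checked on simulated states. Those states were drawn independently for each bin and cell. The check thus does not cover runs of 1 state or cells that differ in percent replicated. Counting SDs are binomial and analytic, and take no account of the spread of percent replicated between cells, so they are upper figures. Windows had at least 10 bins used in both treatments, and a cell counted as replicated with over 50% of its bins at 1. Genes were placed by midpoint with RefSeq GRCm38.p6, which gives no strand, and the promoter table of the same assembly was matched by symbol.

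The members, the gene lists and the rules were chosen with earlier results of these data known, and no pattern known before is offered as independent support. The rule named the 5 windows at each end of the siRif1 change, the 4 at each end of the siCont change and of the difference, with up to 3 longest protein-coding genes. It also named, per list, the 2 genes of largest absolute siRif1 change, naming 1 bin once, all genes of RIF1, PP1 and DDK, and Pou5f1, Nanog, Sox2, Cdx2, Gata3 and Eomes. An item picked by this rule is not reported here. The members past 20 points of the ribosomal list and Zfp598's neighbours were named after their values were seen. Alternatives were cells between 20 and 80% replicated, cells thinned to pairs within 5 points of percent replicated, at least 20 cells per bin, percentile ranks, other classes, a threshold of 30 points, gene-body means and pairs within 2 points.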

Additional observations from a re-analysis of the deposited data

Results flagged for a closer look

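The siRif1 and siCont changes had opposite signs in the following cases, and none of these differences was tested, since each group is 1 sample. The earliest timing class changed by -2.09 points in siRif1 and 6.92 points in siCont. The gene-densest class of bins changed by -2.03 and 5.20 points.

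Among 1-Mb windows with the largest difference, 4 were relatively earlier in siRif1 and later in siCont. These were chromosome 12 from 42 to 43 Mb (13.96 and -24.1 points), chromosome 7 from 10 to 11 Mb (18.4 and -18.0 points), chromosome 12 from 62 to 63 Mb (7.20 and -27.2 points) and chromosome 15 from 50 to 51 Mb (10.8 and -22.2 points). The other 4 were later in siRif1 and earlier in siCont. They were chromosome 17 from 25 to 26 Mb (-24.3 and 16.5 points), chromosome 17 from 27 to 28 Mb (-24.5 and 14.2 points), chromosome 14 from 23 to 24 Mb (-10.3 and 24.7 points) and chromosome 2 from 26 to 27 Mb (-21.8 and 12.8 points).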

How the results depend on the processing

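No paired analysis was possible because cell numbers in the labels name separate cells and no test was made. Thinning cells to matched S phase positions moved the most results. The bins past 20 points went from 4.04 to 8.26%, the stage difference of the SD over bins from 0.654 to -1.29 points and the correlation of the siRif1 profiles from 0.778 to 0.727. The change of the early-minus-late distance went from 0.246 to -6.77 points in siRif1 and from 20.7 to 18.4 points in siCont, and their difference from -20.5 to -25.2 points. The correlation of the siRif1 and siCont changes reversed from 0.180 to -0.0521, and the gene-densest minus the gene-poorest class went from 0.699 to -5.47 points. Windows past 20 points rose in number from 26 to 85 and list members from 41 to 117, and matching left fewer cells. For siRif1 bins, counting error alone would give 3.49% in each direction in matched cells and 1.87% in all cells. No such share was computed for windows or list members. With cells between 20 and 80% replicated 42 windows were past 20 points. At 30 points 0.184% of bins, 0 windows and 2 list members remained. On percentile ranks the distance changed by 11.4 points in siCont, and the difference between treatments was -13.5 points. The median over cells, added after the data were seen, gave a change of 7.22 points in siRif1 and 22.7 points in siCont. All 11 siRif1 windows past 20 points that are named kept their sign with thinned cells (21.4 to 31.7 points in size), and 10 of 13 list medians kept theirs. Of those that did not, the pluripotency and Hox medians were -0.00780 points, an equal share at both stages before centring. The cause of these movements was not tested. The number of cells limits every bin, and the depth per cell is unknown here.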
